A study of Sus scrofa with 6 samples.

Results

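The leukocyte integrin chains ITGB2, ITGAL, ITGAM, ITGA4 and ITGB7 were followed in abdominal aorta of Wisconsin Miniature Swine, where RNA sequencing compared arteries with atherosclerotic lesions with lesion-free arteries. The 5 chains were taken by gene symbol, a rule that uses no measured value, although earlier results of these data were known, and were 5 of the 22861 genes in the deposited gene table. The lesion group was swine labelled WMS FH, where FH commonly stands for familial hypercholesterolaemia, an inherited excess of blood cholesterol, and the lesion-free group was swine labelled WMS normal. RNA of 11 animals per group had been combined into 3 pools per group, lesion pools 1 to 3 and lesion-free pools 4 to 6, and the labels do not say which animal went into which pool. All lesion pools were WMS FH and all lesion-free pools WMS normal, and neither sex, age, diet nor sequencing batch is given per pool, so that the lesion cannot be told apart from the line or from any of these. The p-values below rest on how far pools of 1 group differ, and variation among single animals may be larger.

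Integrins are receptors made of an alpha and a beta chain that sit in the cell membrane and bind other cells, matrix or complement fragments. ITGB2, the beta-2 chain CD18, is made by leukocytes and pairs with ITGAL to form LFA-1, with ITGAM to form Mac-1, and with ITGAX or ITGAD, and the alpha chains need it to reach the cell surface. ITGA4 pairs with ITGB1 to form VLA-4 or with ITGB7 to form a gut-homing receptor. In the artery wall these receptors are known for holding monocytes and lymphocytes to activated endothelium, through ICAM1 for the beta-2 integrins and VCAM1 for the ITGA4 integrins, before the cells enter the lesion.

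Levels are given as CPM, that is, counts relative to the size of the library and brought to a common base, with library sizes adjusted by TMM (trimmed mean of M values). The pools held 4650176 to 11442433 counts in lesion samples and 8492673 to 10826175 in lesion-free samples, with lesion pool 1 the shallowest. A floor of 3 counts equals 0.268 to 0.577 CPM in lesion pools and 0.305 to 0.359 CPM in lesion-free pools, and covers counting error only. Contractile smooth muscle markers, which define the tunica media of an aorta, summed to 29126 to 42036 CPM in lesion pools and 67405 to 78939 CPM in lesion-free pools, and endothelial markers to 315 to 389 CPM in lesion pools and 208 to 218 CPM in lesion-free pools. Of 11673 genes tested with limma, 113 were called higher and 9 lower in lesion pools at an adjusted p under 0.05. Most of the endothelial sum was PECAM1. None of the 5 endothelial markers was called, and VWF, KDR and CLDN5 overlapped between the groups. Since CPM is not divided by transcript length, no level is compared between chains.

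ITGB2, the shared beta-2 chain, was the one member that passed the test, and its alpha partners ITGAL and ITGAM stood higher in every lesion pool by a smaller fold that did not pass. ITGA4 was also higher in every lesion pool on few counts, and ITGB7 overlapped between the groups. Thus 1 of the 5 chains was called higher and 0 lower, where 0.968% of all genes tested were called higher, 0.0771% lower and 1.05% in either direction. In 4 of the 5 all lesion pools lay above all lesion-free pools, as in 10.5% of all genes tested, and in none did they lie below, as in 8.97%. ITGA4 reached the low-count filter of 1.00 CPM in all 3 lesion pools and in 1 lesion-free pool, so it entered the test through the lesion group. The median log2 fold of the 5 chains was 1.76, and that of all genes tested was −0.0022.

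ITGB2 (ENSSSCG00000025133) had 224, 122 and 219 CPM in lesion pools 1, 2 and 3, against 20.3, 16.3 and 11.7 CPM in lesion-free pools 4, 5 and 6. Each lesion pool lay far above each lesion-free pool, and the lowest lesion pool was 6.03 times the highest lesion-free pool. The means were 189 ± 57.4 CPM in lesion pools and 16.1 ± 4.29 CPM in lesion-free ones (SD, n = 3 each). The fitted log2 fold was 3.53 (SE 0.38, 95% interval 2.73 to 4.34), an 11.6-fold difference with a limma adjusted p of 0.000169. By p it ranked 9 among all genes tested, and by fold it ranked 194. Counts behind these values were 1165, 1370 and 2404 in lesion pools and 188, 136 and 115 in lesion-free pools, the most of any member. In bulk tissue more leukocytes and more ITGB2 RNA per leukocyte cannot be told apart. Whichever pool was left out, ITGB2 stayed called, with log2 folds from 3.31 to 3.82 and a limma adjusted p of at most 0.000849.

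**Figure D1:**
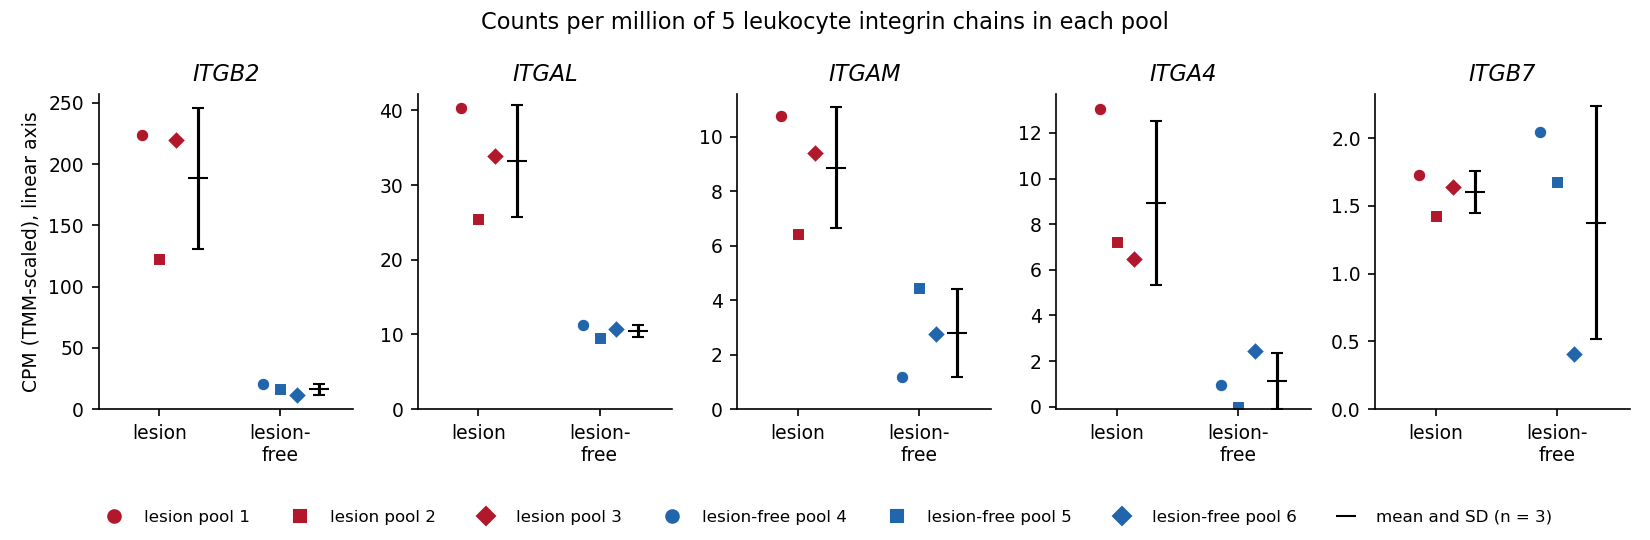
CPM (TMM-scaled, linear axis, a separate scale per chain) of the 5 chains in each pool, lesion on the left and lesion-free on the right of each panel, with bars for the mean and SD of 3 pools. The lesion pools of ITGB2 sit between 122 and 224 CPM and the lesion-free pools between 11.7 and 20.3 CPM, while those of ITGB7 overlap.

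ITGAL (ENSSSCG00000007797), the alpha chain of LFA-1 that binds ICAM proteins on endothelium and is carried by most leukocytes, had 40.4, 25.4 and 33.9 CPM in lesion pools 1, 2 and 3. In lesion-free pools 4, 5 and 6 it had 11.2, 9.58 and 10.7 CPM. The lesion-free pools were close to each other, and all lesion pools were above them. The means were 33.2 ± 7.49 CPM in lesion pools and 10.5 ± 0.829 CPM in lesion-free ones (SD, n = 3 each), with a fitted log2 fold of 1.59 (SE 0.39, 95% interval 0.77 to 2.42). This 3.02-fold difference did not pass the test across all genes (limma adjusted p = 0.0709). It passed with plain library totals (log2 fold 1.75, limma adjusted p = 0.0410), a scaling under which the median log2 fold of all genes moved to 0.16. It also passed with a limma trend on log2(CPM + 1) (log2 fold 1.55, adjusted p = 0.0453) and with sample quality weights (log2 fold 1.50, adjusted p = 0.0248).

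ITGAM (ENSSSCG00000007754), the alpha chain of Mac-1, a receptor for complement fragment iC3b and fibrinogen on monocytes, macrophages and neutrophils, had 10.8, 6.43 and 9.40 CPM in lesion pools 1, 2 and 3. In lesion-free pools 4, 5 and 6 it had 1.19, 4.43 and 2.74 CPM. The groups did not overlap, and lesion-free pool 5 came closest to the lesion pools. The means were 8.86 ± 2.22 CPM in lesion pools and 2.79 ± 1.62 CPM in lesion-free ones (SD, n = 3 each). Its log2 fold was 1.76 (SE 0.79, 95% interval 0.07 to 3.45) with a limma adjusted p of 0.451, on 231 counts in lesion pools together and 75 in lesion-free pools.

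Other partners of ITGB2 gave little to compare. ITGAX, the alpha chain of a complement receptor of macrophages and dendritic cells, was matched to no entry and was not analysed here. The entry named ITGAD had 0, 9 and 0 counts in lesion pools and 6, 18 and 0 in lesion-free pools, too few to be tested. An entry with an identifier only (ENSSSCG00000007764), whose only isoform carries the name ITGAD-201, had 161, 381 and 668 counts in lesion pools and 567, 549 and 511 in lesion-free pools. Its log2 fold was −0.52 with a limma adjusted p of 0.587, and it was not counted as ITGAD. In the order of genes of the RefSeq annotation of assembly Sscrofa11.1, ITGAX and ITGAD lie beside ITGAM, with 1 and 2 genes between, whereas 37 genes lie between ITGAL and ITGAM. ITGAX is listed there as a long non-coding RNA. Whether ITGAM and the ITGAD entries share reads that the estimation behind the deposited counts split between them was not tested.

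ITGA4 (ENSSSCG00000016009), the alpha chain that binds VCAM1 and fibronectin, had 13.1, 7.23 and 6.48 CPM in lesion pools 1, 2 and 3, against 0.970, 0 and 2.44 CPM in lesion-free pools 4, 5 and 6. Lesion-free pool 5 held no count of it, which at this depth allows up to 0.359 CPM. The groups did not overlap, with means of 8.93 ± 3.61 CPM in lesion pools and 1.14 ± 1.23 CPM in lesion-free ones (SD, n = 3 each). Its log2 fold was 3.75 (SE 1.47, 95% interval 0.60 to 6.90) with a limma adjusted p of 0.364. That size depends on the 0.5 added to each count, since 1 pool was at 0. On the log2(CPM + 1) scale the log2 fold was 2.33, and without lesion-free pool 5 it was 2.27.

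ITGB7 (ENSSSCG00000000257), the beta chain that pairs with ITGA4 or ITGAE on gut-homing lymphocytes, had 1.73, 1.43 and 1.64 CPM in lesion pools 1, 2 and 3. It had 2.05, 1.68 and 0.406 CPM in lesion-free pools 4, 5 and 6. The groups overlapped, and the highest pool was lesion-free. The log2 fold of 0.49 (SE 1.27, 95% interval −2.22 to 3.20, limma adjusted p = 0.917) rested on 43 counts in lesion pools and 37 in lesion-free pools, and turned to −0.24 without lesion-free pool 6. The interval spans large differences in both directions, and a difference was not detectable at this depth.

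Among the lesion pools the order was much the same for all chains. Lesion pool 1 was the highest of the 3 for each of the 5 chains, although narrowly for ITGB2 and, on 9 to 18 counts per pool, for ITGB7, and lesion pool 2 was the lowest for all but ITGA4. Lesion pool 1 was also the shallowest library, and it had the most PTPRC, the leukocyte phosphatase CD45, at 132 CPM against 36.0 and 45.9 CPM in lesion pools 2 and 3. The lesion-free pools had no such order. Pool 4 was the highest for ITGB2, ITGAL and ITGB7, pool 5 for ITGAM and pool 6 for ITGA4.

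**Figure D2:**
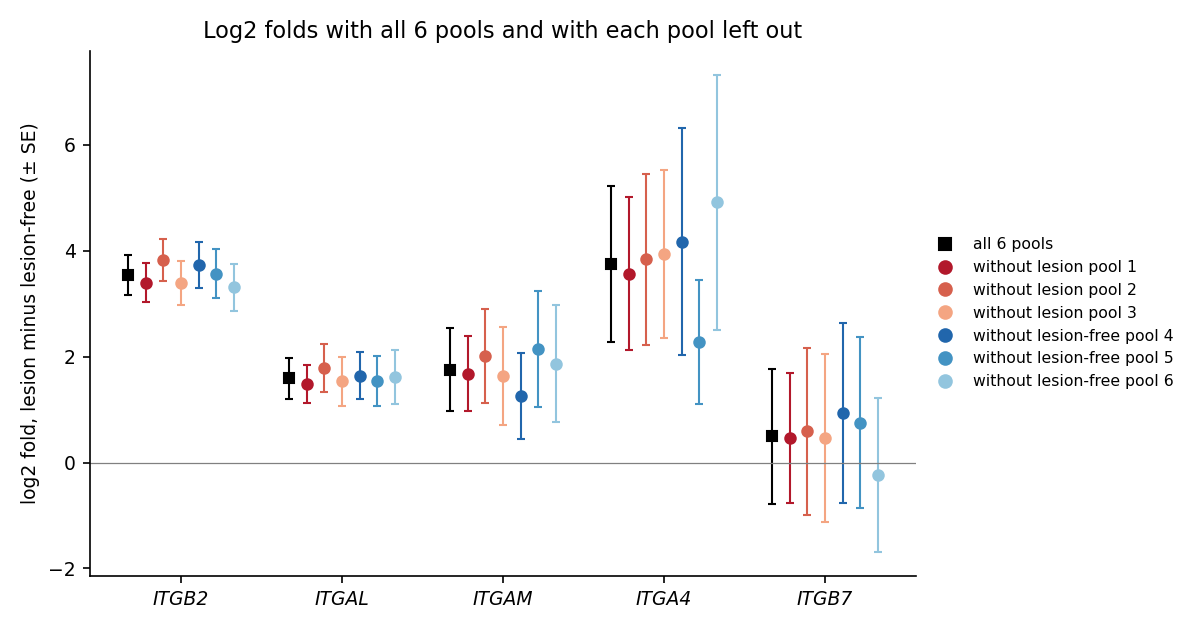
Log2 fold (lesion minus lesion-free, limma, ± SE) of the 5 chains with all 6 pools and with each pool left out in turn. ITGB2 stays between 3.31 and 3.82, ITGA4 falls to 2.27 without lesion-free pool 5, and ITGB7 crosses 0 without lesion-free pool 6.

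The isoform table gave the same picture, since each chain drew all or nearly all of its counts from 1 transcript entry. For ITGB2 the single isoform, ITGB2-201, held every count and was called higher, with a log2 fold of 3.54 (SE 0.39, limma adjusted p = 0.00299, over 12666 isoforms tested), where 0.418% of isoforms were called higher and 0.0316% lower. ITGAL had 5 entries, 3 of them with counts, and ITGAL-001 held 96.5% of the counts with a log2 fold of 1.58 (limma adjusted p = 0.165). ITGAL-003 held 3.38%, or 39 counts in all, and ITGAL-004 held 2 counts. ITGAM-002 and ITGB7-201 held every count of their genes, and of 3 entries all named ITGA4-001 a single one held every count of ITGA4. None of these was called, and with 1 tested transcript per chain no change in isoform use could be tested.

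The alpha chains were also set against their beta chain within each pool, a ratio from which library scaling cancels. Only differences of a ratio between groups are read, since its level depends on transcript length. The log2 ratio of ITGAL over ITGB2 was −2.47, −2.26 and −2.69 in lesion pools 1, 2 and 3, against −0.85, −0.76 and −0.13 in lesion-free pools 4, 5 and 6. All lesion pools were below all lesion-free pools, and the group means differed by −1.89. The log2 ratio of ITGAM over ITGB2 was −4.37, −4.24 and −4.54 in lesion pools, against −4.03, −1.86 and −2.07 in lesion-free pools. Here too all lesion pools were below, with a difference of −1.73 between the means, but lesion-free pool 4 lay close to them. In a two-sided exact permutation test each gave p = 0.1, the smallest that 3 pools against 3 allow, and 0.16 when adjusted over the 8 ratios computed.

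For the ITGA4 and ITGB7 pair the log2 ratio was 2.85, 2.30 and 1.95 in lesion pools and −1.04, −4.86 and 2.44 in lesion-free pools. The lesion-free pools ran on both sides of 0 on few counts, and the groups overlapped. The difference was 3.52 (two-sided exact permutation p = 0.3, 0.4 adjusted over 8).

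A second set of ratios placed each chain against the mean log2 level of 6 genes common to leukocytes, PTPRC, CD53, LCP1, LAPTM5, ARHGDIB and CD48. ITGB2 over this mean stood at 1.01, 1.10 and 1.14 in lesion pools, against 0.25, 0.85 and 0.59 in lesion-free pools, a difference of 0.52 (two-sided exact permutation p = 0.1, 0.16 adjusted over 8). That difference was 0.14 against PTPRC alone and 0.03 when ARHGDIB, whose groups overlapped at a log2 fold of 0.57, was taken out of the mean after the data were seen. Under both the groups overlapped. Relative to PTPRC or to the 5 genes without ARHGDIB, ITGB2 thus did not separate the groups.

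ITGAL over the same mean was lower in every lesion pool, at −1.46, −1.17 and −1.56, against −0.60, 0.09 and 0.46 in lesion-free pools. Its difference was −1.38, and it was −1.75 against PTPRC alone and −1.87 without ARHGDIB, with no overlap under any of these (two-sided exact permutation p = 0.1 each). ITGB7 over the mean of the 6 genes was also lower in every lesion pool, with a difference of −2.53 (two-sided exact permutation p = 0.1). The CPM of ITGB7 itself overlapped between the groups, on 43 counts in lesion pools and 37 in lesion-free pools. The ratios of ITGAM and ITGA4 over that mean overlapped between the groups, with differences of −1.21 (two-sided exact permutation p = 0.4) and 0.99 (two-sided exact permutation p = 0.7). The difference of ITGA4 was −0.48 without lesion-free pool 5.

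**Figure D3:**
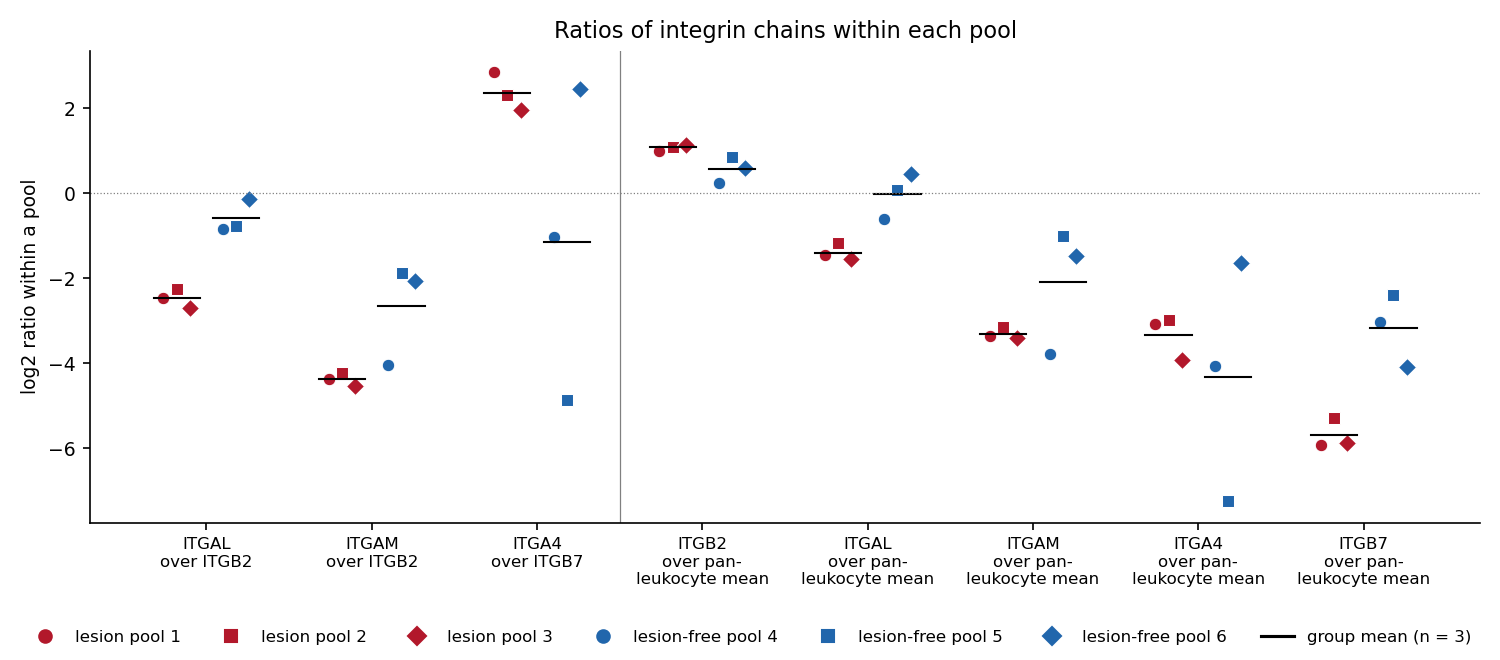
Log2 ratios within each pool, lesion points left of lesion-free points, with a line for the mean of 3 pools. On the left of the vertical line are alpha over beta chains, on the right each chain over the mean of 6 pan-leukocyte genes. ITGAL over ITGB2 lies between −2.69 and −2.26 in lesion pools and between −0.85 and −0.13 in lesion-free pools.

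Markers of cells that carry these chains were summed in each pool. Of the 6 pan-leukocyte genes with an entry, 3 were called higher in lesion pools and 3 were not, beside 0.968% of all genes called higher. The 6 together summed to 441 to 810 CPM in lesion pools and 140 to 284 CPM in lesion-free pools. Most of each lesion-free sum was ARHGDIB, whose groups overlapped. It had 254, 119 and 296 CPM in lesion pools, against 227, 107 and 111 CPM in lesion-free pools. LCP1, the actin-bundling protein plastin of leukocytes, had 184, 145 and 205 CPM in lesion pools, against 9.81, 8.02 and 9.35 CPM in lesion-free pools, and rose by a log2 fold of 4.27 (limma adjusted p = 2.52e-05). PTPRC had a log2 fold of 3.34 and missed the threshold (limma adjusted p = 0.0559, and 0.00764 to 0.231 over the alternatives). Of 8 macrophage markers tested, 7 were called higher, beside 0.968% of all genes. The macrophage markers summed to 1190 to 2035 CPM in lesion pools and 181 to 341 CPM in lesion-free pools. CD14, the monocyte co-receptor for lipopolysaccharide, was not called, and CD163, a scavenger receptor of resident macrophages, was near 0 in all pools.

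The 9 T cell markers summed to 9.37 to 15.5 CPM in lesion pools and 0 to 6.90 CPM in lesion-free pools, and of the 3 tested none passed the limma test or had an unadjusted p under 0.05. The 6 cytotoxic cell markers summed to 21.1 to 58.4 CPM in lesion pools and 0 to 6.47 CPM in lesion-free pools. Most of that sum in lesion pools was NKG7, a granule protein of natural killer and cytotoxic T cells named after its values were seen. It had 53.1, 18.3 and 56.2 CPM in lesion pools, against 2.26, 0 and 1.83 CPM in lesion-free pools. Its groups did not overlap, and it did not pass the test (limma adjusted p = 0.224, and 0.00236 to 0.554 over the alternatives). PRF1, GZMB and KLRB1 had 3, 5 and 4 counts in lesion pools together, against 7, 7 and 10 in lesion-free pools. NCR1 had counts in lesion-free pool 6 alone, and GNLY overlapped between the groups and was not called. Neutrophil markers summed to 0 to 10.9 CPM in lesion pools and to 0 in each lesion-free pool. Most of the highest sum was S100A12, with 98 counts (8.94 CPM) in lesion pool 3 and none elsewhere. S100A8, S100A9, ELANE and LTF had few counts, all in lesion pools. MPO and CAMP, granule genes of neutrophils and their precursors, had no count in any pool. Of the 9 neutrophil markers listed, 7 had an entry, and none was tested. B and plasma cell markers summed to 0 to 4.84 CPM in lesion pools and 0.508 to 7.76 CPM in lesion-free pools. Mast cell markers summed to 8.84 to 19.2 CPM in lesion pools and 11.7 to 34.1 CPM in lesion-free pools. The tested entries of these lists, CD79B (log2 fold 0.52) and MS4A2 (log2 fold −0.43), overlapped between the groups and were not called. Smooth muscle markers were lower in lesion pools for all 5 tested, 2 of them called, beside 0.0771% of all genes called lower. The part of these marker levels in the differences of the integrin chains was not tested.

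The genes whose pattern was closest to ITGB2 over the 6 pools were looked for among the 8825 tested genes with a symbol in the table. Likeness was the root mean square difference of log2 CPM after each gene's own mean was subtracted, so that 0 means the same pattern. The closest 8 were FCER1G at 0.13, WDFY4 at 0.21, C5AR1 at 0.24, MPEG1 at 0.26, AIF1 at 0.27, C1QC at 0.28, TRPV2 at 0.29 and MYO1F at 0.33, where the median gene was at 1.90. FCER1G is the signalling gamma chain of Fc receptors, C5AR1 the receptor for complement fragment C5a, and MPEG1 and AIF1 are macrophage proteins, the one a pore former and the other an actin binder. WDFY4 is known from mouse dendritic cells, where antigen cross-presentation needs it. Of 6 dendritic cell markers listed, only WDFY4 was tested. FLT3 had 8 counts in lesion pools together against 31 in lesion-free pools, BATF3 had 0 against 7 and XCR1 had 29 against 0. CLEC9A and ZBTB46 were matched to no entry. C1QC is a chain of complement C1q, which tissue macrophages make, TRPV2 is a cation channel and MYO1F a myosin of leukocytes. FCER1G had 259, 152 and 308 CPM in lesion pools 1, 2 and 3, against 23.8, 18.9 and 12.2 CPM in lesion-free pools 4, 5 and 6. Like ITGB2, it was lowest in pool 2 among lesion pools and in pool 6 among lesion-free pools.

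On the same measure ITGAL stood at 0.98 and ranked 153 of 8825, ITGAM at 1.11 and ranked 227, ITGB7 at 1.61 and ranked 1521, and ITGA4 at 1.76 and ranked 2890. These ranks are a description over 6 pools that share the 2 conditions, and ITGAM, ITGA4 and ITGB7 rested on the fewest counts.

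**Figure D4:**
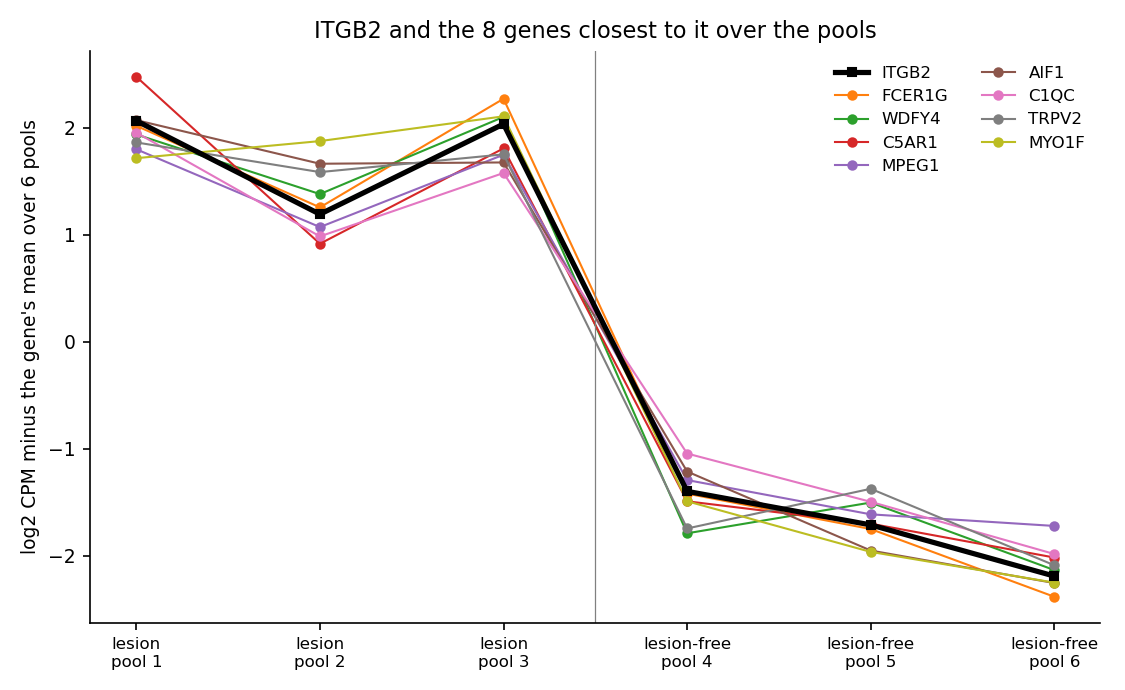
Log2 CPM minus the gene's mean over the 6 pools for ITGB2 and the 8 genes closest to it, lesion pools on the left and lesion-free pools on the right, with lines joining the points of a gene. FCER1G follows ITGB2 with a root mean square difference of 0.13, and MYO1F, the eighth, with 0.33.

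Of 16 integrin chains outside the leukocyte group that were tested, limma called 0 in either direction, and their median log2 fold was 0.18, within a range of −1.09 to 1.08. At an unadjusted p under 0.05, 1 of the 16 was higher and 2 were lower, where 6.49% of all genes tested were higher and 4.15% lower at that threshold, and with sample quality weights ITGA5 was called lower. ITGB1, the partner of ITGA4 in VLA-4 and the common beta chain of smooth muscle, had 1478 ± 290 CPM in lesion pools and 1389 ± 174 CPM in lesion-free ones (SD, n = 3 each; log2 fold 0.08, limma adjusted p = 0.938). ITGA8, a matrix receptor chain of smooth muscle, had a log2 fold of 0.09 and the collagen receptor chain ITGA1 of 0.28, and the groups overlapped in both. ITGA5, the fibronectin receptor chain, was lower in every lesion pool, at 576, 570 and 325 CPM, against 960, 913 and 1118 CPM in lesion-free pools. Its log2 fold of −1.06 did not pass (limma adjusted p = 0.126). ITGAE, the partner of ITGB7 on lymphocytes in epithelium, had a log2 fold of 0.16 (limma adjusted p = 0.950).

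**Figure D5:**
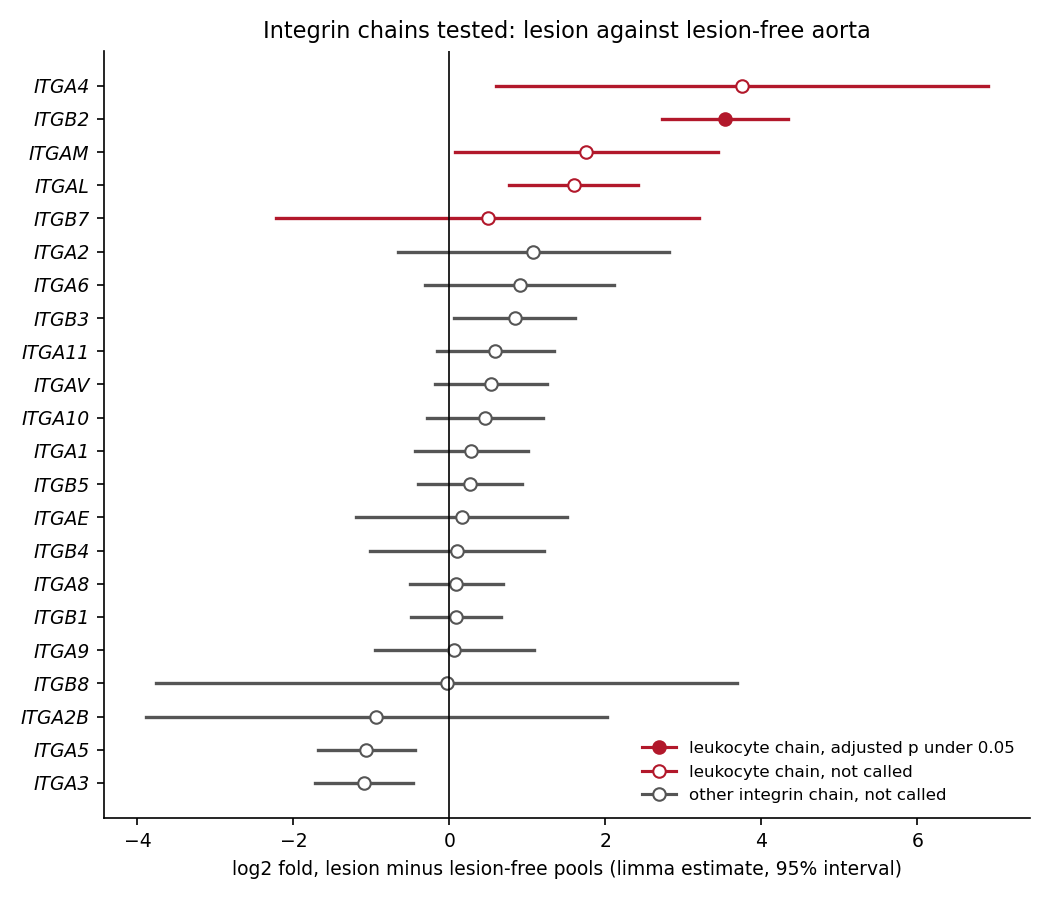
Log2 fold (lesion minus lesion-free, limma) with its 95% interval for all integrin chains tested, ITGB2, ITGAL, ITGAM, ITGA4 and ITGB7 in red above and all others, ITGAE among them, in grey. ITGB2 is the one filled point, called at an adjusted p under 0.05, and the intervals of ITGA4 and ITGB7 are the widest among the 5.

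Of 21 ligands of these integrins listed, 12 were tested, of which limma called 2 higher and 0 lower, with a median log2 fold of 1.01. At an unadjusted p under 0.05, 6 of the 12 were higher and 1 lower, beside the 6.49% and 4.15% of all genes. With plain library totals or sample quality weights 4 were called higher. C3, the complement protein whose fragment iC3b is bound by Mac-1, had 831, 497 and 838 CPM in lesion pools, against 27.8, 47.2 and 33.6 CPM in lesion-free pools. It rose by a log2 fold of 4.32 (SE 0.32, limma adjusted p = 7.22e-06), and remained called whichever pool was left out. SPP1, the matrix protein osteopontin that ITGA4 integrins bind, had 1915, 547 and 396 CPM in lesion pools, against 1.72, 4.31 and 6.40 CPM in lesion-free pools. Its log2 fold was 7.67 (SE 1.14, limma adjusted p = 0.00935), and the call was lost without lesion-free pool 4 or 6, with an adjusted p of up to 0.157. FN1, fibronectin, at 5864 ± 575 CPM in lesion pools and 2626 ± 982 CPM in lesion-free ones (SD, n = 3 each), did not pass (limma adjusted p = 0.102).

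The counter-receptors VCAM1 and ICAM1, named here after their values were seen, did not pass the test, although neither overlapped between the groups. Which cells of the artery wall made them was not tested. VCAM1 had 294, 107 and 67.5 CPM in lesion pools 1, 2 and 3, against 27.1, 26.5 and 30.1 CPM in lesion-free pools 4, 5 and 6. All lesion pools were higher, lesion pool 1 by far, with a log2 fold of 2.16 (SE 0.48, limma adjusted p = 0.0596, and 0.00250 to 0.274 over the alternatives). ICAM1 had 64.6, 53.7 and 63.2 CPM in lesion pools, against 32.9, 15.6 and 27.8 CPM in lesion-free pools, with a log2 fold of 1.29 (limma adjusted p = 0.0967). CCN1, a matrix ligand of Mac-1 listed under its older name CYR61, overlapped between the groups, with a log2 fold of −1.32 (limma adjusted p = 0.186). Lesion pool 3, at 410 CPM, lay above lesion-free pool 4, at 398 CPM. Without lesion pool 3 CCN1 was called lower (limma adjusted p = 0.0491).

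Integrins are switched on from inside the cell by talin and kindlin, which bind the beta tail. Of 17 tested entries linked to this step, limma called 1 higher and 0 lower, with a median log2 fold of 0.52. At an unadjusted p under 0.05, 6 were higher and 0 lower, beside 6.49% and 4.15% of all genes. The list also holds genes known to restrain integrin activity, CYTIP and SHARPIN among them, so its counts give no direction of integrin activation. Of these entries APBB1IP, CYTIP and 1 of the 2 named STK4 reached the low-count filter in all lesion pools and in at most 1 lesion-free pool, and CYTIP and STK4 of these are among the 6. The called entry was FERMT3, the kindlin of blood cells, at 24.2, 31.7 and 45.7 CPM in lesion pools, against 8.52, 5.51 and 5.08 CPM in lesion-free pools. It rose by a log2 fold of 2.44 (SE 0.49, limma adjusted p = 0.0222), but lost the call without lesion pool 3 or without any 1 of the lesion-free pools, with an adjusted p of up to 0.124. The widely expressed TLN1, talin, had a log2 fold of −0.40 (limma adjusted p = 0.634), and the kindlin of other tissues, FERMT2, one of −0.26 (limma adjusted p = 0.794).

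Signals from bound beta-2 integrins run in mouse and human leukocytes through the adaptors TYROBP and FCER1G and Src-family kinases. Of 13 such entries tested, limma called 2 higher and 0 lower, and the median log2 fold was 2.30 (11 higher and 0 lower at an unadjusted p under 0.05, beside 6.49% and 4.15% of all genes). Among the 11, DOCK2 for one reached the low-count filter in at most 1 lesion-free pool and entered the test through the lesion group. Those called were FCER1G, with a log2 fold of 3.71 (SE 0.38, limma adjusted p = 0.000134), and TYROBP. TYROBP had 80.9, 55.5 and 103 CPM in lesion pools, against 18.2, 5.27 and 9.45 CPM in lesion-free pools, with a log2 fold of 2.96 (SE 0.46, limma adjusted p = 0.00370). The Src-family kinase FGR did not pass at a log2 fold of 2.58 (limma adjusted p = 0.0709), nor did the exchange factor VAV1 at 4.99 (limma adjusted p = 0.0968), although neither overlapped between the groups. VAV1 had no count in lesion-free pool 5, so that its fold depends on the 0.5 added, and it was 3.71 on log2(CPM + 1) and 2.94, then called, without that pool. With sample quality weights 6 entries were called higher, FGR, VAV1 and the kinase LYN among them, and with a limma trend 4 were. PTK2B, a focal adhesion kinase of leukocytes, had a log2 fold of −0.71 (limma adjusted p = 0.523).

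Of 5 tested transcription factors known at human leukocyte integrin promoters, limma called 1 higher and 0 lower, and at an unadjusted p under 0.05 1 was higher and 1 lower, beside 6.49% and 4.15% of all genes. SPI1, the myeloid factor PU.1, had 50.7, 56.0 and 105 CPM in lesion pools, against 23.3, 11.4 and 7.82 CPM in lesion-free pools. It rose by a log2 fold of 2.42 (SE 0.45, limma adjusted p = 0.0140), and the call was lost without lesion-free pool 5 or 6, with an adjusted p of up to 0.0700. CEBPB, at −1.25, RUNX1, at 1.10, CEBPA, at 2.41, and SP1, at 0.48 on the log2 scale, were not called, with limma adjusted p of 0.311, 0.515, 0.472 and 0.797. A second entry named CEBPB held 110 counts in lesion pool 1 and none elsewhere, as many as the tested entry had in that pool, so the value of CEBPB there is uncertain. All of these lists were chosen with earlier results known and are not independent evidence of a direction.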

How the data were processed

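RNA of 6 pools was sequenced from libraries of a stranded total RNA kit, per the labels' protocols. The authors deposited a gene table and an isoform table of estimated counts per pool. The submitters' processing notes name RSEM 1.3.0 and edgeR without saying what each was used for, and aligner and genome build were "not given in the sources used here". All deposited values were whole numbers with commas between groups of digits, and the commas were removed. The test was limma 3.58.1 in R 4.3.3, with voom weights and robust moderation, on log2 CPM computed from the deposited counts. No count model was run. An entry was tested if 3 or more pools reached 1.00 CPM, which is 10 counts in the median library, and all pools together held 15 counts or more. TMM scaling trimmed 30% of M and 5% of A, and 0.5 was added to each count before the log. P-values are two-sided, and Benjamini-Hochberg adjustment ran over every entry tested, with a threshold of 0.05. The procedure was tested on simulated data.

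Pools of a group were compared before averaging, and their chi-square per degree of freedom ran from 22.7 to 97.7, far beyond sampling noise. Ratios within pools were compared with two-sided exact permutation tests. Alternatives were other scalings, other filters on low counts, a limma trend on log2(CPM + 1), sample quality weights, moderation without the robust option, and leaving out each pool.

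The members and gene lists were chosen with earlier results of these data known. Values are given for the 5 members, for the 8 genes most like ITGB2, and per list for at most 6 called genes by p and up to 4 uncalled members with the highest CPM. PTPRC, LCP1, NKG7, ICAM1 and VCAM1 were named after their values were seen. Listed genes with no match by symbol were looked up by identifier or synonym in RefSeq names of assembly Sscrofa11.1.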

Additional observations from a re-analysis of the deposited data

How the results depend on the processing

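ITGB2 kept its direction and its call under all 13 alternatives, with log2 folds from 3.31 to 3.82. ITGAM and ITGA4 kept their direction and stayed uncalled under all 13, as did ITGAL under 10, while ITGAL was called with plain library totals (1.75), a limma trend (1.55) and sample quality weights (1.50). With a pool left out, ITGB7 ran from −0.24 to 0.93 and its isoform from −0.23 to 0.94, both negative without lesion-free pool 6. The ITGA4 ratio over the pan-leukocyte mean ran from −0.48, without lesion-free pool 5, to 2.32. The stricter filter left ITGB7 untested. Uncalled genes near 0 changed sign. With sample quality weights ITGB1 was at −0.081, ITGA8 at −0.067, ITGA1 at −0.051 and RAP1A at −0.13. With a pool left out, ITGB1 ran from −0.064 to 0.21, ITGA8 from −0.13 to 0.26, ITGA1 from −0.13 to 0.62, RAP1A from −0.17 to 0.24, ITGAE from −0.25 to 0.69, THY1 (listed as CD90) from −0.29 to 0.26 and SP1 from −0.31 to 0.99.

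Genes called higher and lower numbered 113 and 9. They were 171 and 17 without a low-count filter, 202 and 14 with a limma trend, 213 and 40 with sample quality weights, and 54 to 150 and 3 to 36 with a pool left out, with 63 higher without lesion-free pool 5 and 54 without lesion-free pool 6. Isoforms called higher and lower numbered 53 and 4, then 101 and 16, 118 and 7, and 92 and 12 under the same 3 settings, and 16 to 66 and 1 to 3 with a pool left out. The cause was not tested. No paired analysis was possible because the pools are numbered 1 to 6 and share no number. Low counts limit ITGAM, ITGA4 and ITGB7, whose intervals were wide.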
